A study of Homo sapiens with 9 samples.

Results

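The 38 genes described here encode core regulators of autophagy and of the lysosome. They were chosen by name, as a list, and were read in the human hepatoma line Huh-7 and in clones of it that cannot secrete apolipoprotein B. All 38 names were found once among the 58735 genes of the deposited tables. The study sequenced polyA-selected RNA from 3 groups of 3 libraries each. Huh-7 cells were the control. Ako-3 is 1 clone in which Cas9 protein with guide RNAs against exon 6 of APOB had been introduced, and Mko-3 is 1 MTTP-deficient clone of Huh-7 that had been made earlier. APOB encodes the structural protein of very low density lipoproteins, and MTTP encodes the transfer protein that loads it with lipid. Every group was grown in DMEM with serum, washed, and left in serum-free medium overnight before harvest, so the control cells were deprived of serum too. As each knockout is a single clone, the effect of the targeted gene and that of the clone cannot be told apart. The labels call the 3 libraries of a group biological replicates but do not say whether they came from separate cultures, so the p values measure the spread between these libraries, which may be technical. In bulk RNA, fewer cells that express a gene and less RNA per cell cannot be told apart.

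Autophagy begins when the ULK1 kinase complex and a phosphatidylinositol 3-kinase complex mark a membrane, which then grows around cargo. ATG9 vesicles, ATG2 lipid transfer proteins and WIPI proteins supply and organise the membrane, and a set of conjugating enzymes couples LC3 and GABARAP proteins to its lipids. Cargo receptors bind both the cargo and LC3, and the closed autophagosome fuses with a lysosome. In hepatocytes autophagy turns over proteins, organelles and lipid droplets, and TFEB and TFE3 are transcription factors of the lysosomal and autophagy genes.

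The libraries held 14638727 to 20179760 counts, and the group means of 35 of the 38 genes were above 1 FPKM (fragments by gene length and library size, here from normalized counts) in each group. The 9 hepatocyte markers examined were expressed in all groups, with summed levels of 5157 to 5293 FPKM in Huh-7, 6173 to 6564 in Ako-3 and 5110 to 5415 in Mko-3 cells. Against Huh-7 (edgeR, log2 scale), APOA2 stood at 1.02 (adjusted p = 3.6e-11), TTR at 0.90 (adjusted p = 3.2e-09) and HNF4A at 0.70 (adjusted p = 3.4e-09) in Ako-3. AFP, APOA1, TF and SERPINA1 were also called higher in Ako-3, while ALB (0.02, adjusted p = 0.75) and FGB (-0.13, adjusted p = 0.092) were not called. In Mko-3 the markers moved in both directions, with AFP at 0.80 (adjusted p = 1.1e-10), ALB at -0.49 (adjusted p = 1.1e-07) and APOA1 at -0.43 (adjusted p = 6.4e-06). Of 8 markers of other cell types only PECAM1, an endothelial marker, had a mean above 1 FPKM, and CD68 and KRT5 were at 0 in every group. PECAM1 was 0.44 higher in Ako-3 (adjusted p = 2.6e-05), stood at -0.61 in Mko-3 (adjusted p = 5.5e-07) and at -1.05 in Mko-3 against Ako-3 (adjusted p = 4.3e-27). The part of these markers in the results below was not tested. APOB read 179, 236 and 257 FPKM in the Huh-7 libraries, 95.6, 85.9 and 85.4 in Ako-3 and 212, 232 and 220 in Mko-3. MTTP read 116, 111 and 121 FPKM in Huh-7, 111, 108 and 100.4 in Ako-3 and 16.3, 16.9 and 15.4 in Mko-3, so the targeted gene was low in the clone labelled for it. Mitochondrial genes took 5.52 to 6.17% of the counts in Huh-7, 7.06 to 7.40% in Ako-3 and 5.75 to 5.82% in Mko-3 libraries, and the part of this in the differences below was not tested.

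TFEB and TFE3 bind an element with the core TCACGTGA, which holds the shorter E-box CACGTG, in promoters of lysosomal genes. The RefSeq promoter table (build GRCh38.p14) gave windows of 300 bases, 250 before and 50 after a start, for 33 of the 38 genes, in 42 windows. TCACGTGA stood in 2 of the 42 windows, those of LAMP1 and ATG3, and in 0.98% of all 35116 windows. CACGTG stood in 3 windows, in LAMP1, ATG3 and ATG14, which is 7.14% of the windows and near the 7.26% of all windows. The antioxidant response element core TGACNNNGC, an NRF2 site, stood in the windows of LAMP1, ATG101 and MAP1LC3B and in 13.3% of all windows. Neither TGATGCAAT, a C/EBP-ATF element (0.236% of all windows), nor GTAAACA, a FOXO site (3.42%), was found in any window of these genes. Both strands were searched. The promoters of 3 genes are shown to 25 bases past the start. LAMP1 and ATG3 carry the TFEB element and are printed because one rose in both clones and the other passed no test, and MAP1LC3B is printed as the marker gene of autophagosomes. Capitals mark CACGTG and TCACGTGA in LAMP1 and ATG3, and TGACNNNGC in MAP1LC3B. LAMP1 lies at chr13:113296989-113297263 on the plus strand, ATG3 at chr3:112561938-112562212 on the minus strand and MAP1LC3B at chr16:87392086-87392360 on the plus strand.
LAMP1: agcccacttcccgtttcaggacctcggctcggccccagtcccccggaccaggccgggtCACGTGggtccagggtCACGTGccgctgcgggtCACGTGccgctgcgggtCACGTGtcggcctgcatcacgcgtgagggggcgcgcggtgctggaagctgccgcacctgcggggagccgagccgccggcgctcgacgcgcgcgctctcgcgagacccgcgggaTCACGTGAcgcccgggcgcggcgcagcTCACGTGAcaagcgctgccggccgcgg
ATG3: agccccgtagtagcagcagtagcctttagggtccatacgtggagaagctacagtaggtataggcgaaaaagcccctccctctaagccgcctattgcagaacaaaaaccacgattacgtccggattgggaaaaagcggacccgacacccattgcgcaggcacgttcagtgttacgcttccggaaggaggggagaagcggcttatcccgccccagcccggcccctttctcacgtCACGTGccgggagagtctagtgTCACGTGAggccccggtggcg
MAP1LC3B: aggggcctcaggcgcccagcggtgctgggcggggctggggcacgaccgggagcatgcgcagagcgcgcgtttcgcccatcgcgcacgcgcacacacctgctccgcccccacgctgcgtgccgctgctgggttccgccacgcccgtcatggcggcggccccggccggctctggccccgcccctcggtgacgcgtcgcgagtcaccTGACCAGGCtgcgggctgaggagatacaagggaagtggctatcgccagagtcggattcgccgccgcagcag
The LAMP1 window holds 6 copies of CACGTG, 2 of them inside TCACGTGA, and the ATG3 window holds 2, 1 of them inside TCACGTGA. One TGACNNNGC match in LAMP1, which overlaps the most upstream E-box, is not capitalised. These matches describe letters and do not show binding.

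In Huh-7 cells the 5 genes with the highest level per length were OPTN, LAMP2, TFE3, LAMP1 and SQSTM1, with means of 31.5 to 49.1 FPKM. OPTN at 49.1 ± 6.6 (SD, n = 3) and LAMP2 at 47.1 ± 2.1 overlapped, as did TFE3 at 42.9 ± 1.2 and LAMP1 at 40.9 ± 1.5. The median of the 38 was 7.14 FPKM. RB1CC1 stood at 0.786 ± 0.22 FPKM. ULK2, a paralog of ULK1, had at most 1 count in any library, and MAP1LC3A, an LC3 isoform, at most 2. These 2 genes were not tested, and 36 of the 38 were. The summed level of the 38 genes was 462 to 481 FPKM in Huh-7, 410 to 414 in Ako-3 and 423 to 435 in Mko-3 libraries. The sums of both clones lay below those of the control without overlap, but a sum gives most weight to the abundant genes. The median of the 38 was not lower in the clones, at 8.04 FPKM in Ako-3 and 7.29 in Mko-3 against 7.14 in Huh-7.

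**Figure D1:**
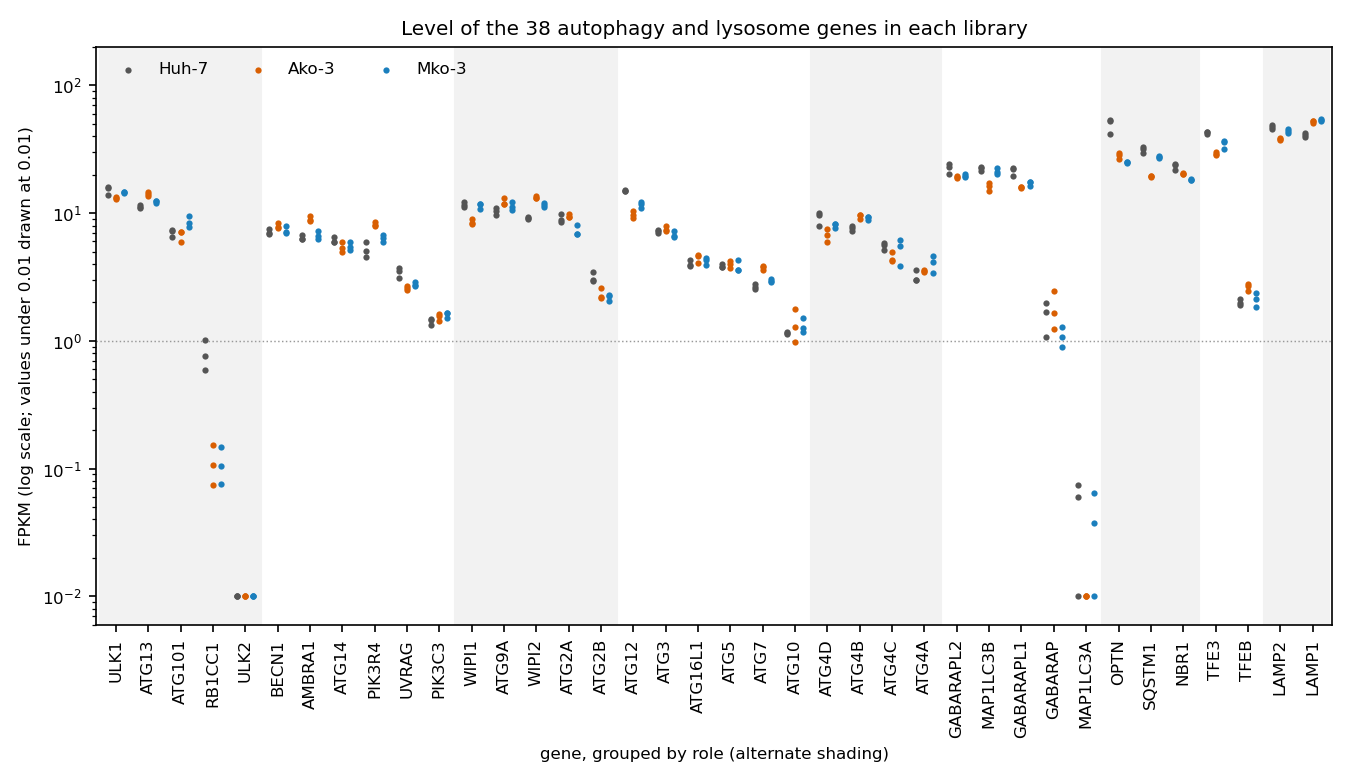
Level of each of the 38 genes in each library (FPKM, log scale), grouped by role, with Huh-7 in grey, Ako-3 in orange and Mko-3 in blue. Most genes lie between 1 and 60 FPKM in all 9 libraries, while RB1CC1 lies near 0.1 in both clones and ULK2 and MAP1LC3A lie near 0.

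To ask how the loss of APOB and of MTTP bears on these genes, each clone was compared with Huh-7, and the clones with each other. A gene is said here to have risen or fallen, or to be called, at an edgeR quasi-likelihood adjusted p of at most 0.05 over all genes tested. In Ako-3 cells 9 of the 36 tested genes rose and 16 fell. That is 69.4%, beside 49.9% of all 15787 genes tested. By direction, 25.5% of all genes rose and 24.4% fell. In Mko-3 cells 5 of 36 rose and 11 fell, which is 44.4%, beside 54.0% of 15745 genes (26.9% higher and 27.1% lower). Upper-quartile factors and library totals each gave 2 higher and 18 lower in Mko-3 in place of 5 and 11. Library totals alone also lowered the share of risen genes among all called in Ako-3 from about even to 38.2%, and put the median log2 fold change of all genes at -0.10. The stricter rule of the study also asks for a doubling or halving, that is, 1 or more on the log2 scale. It was passed by RB1CC1 in both clones and by OPTN in Mko-3. OPTN lay at the threshold with -1.02, and fell short of it with no filter on low counts (-0.98), by limma on log2(FPKM + 1) (-0.97), and without Huh-7 replicate 1 (-0.96) or 3 (-0.95). Over all genes 8.52% passed it in Ako-3 (3.52% higher and 5.00% lower) and 11.0% in Mko-3 (3.82% higher and 7.22% lower). The remaining called genes moved less than that. The median log2 fold change of the tested genes was -0.03 in Ako-3 and -0.10 in Mko-3, against -0.01 over all genes in each. Of the genes not called, 1 in Ako-3 and 5 in Mko-3 had an unadjusted edgeR p under 0.05.

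**Figure D2:**
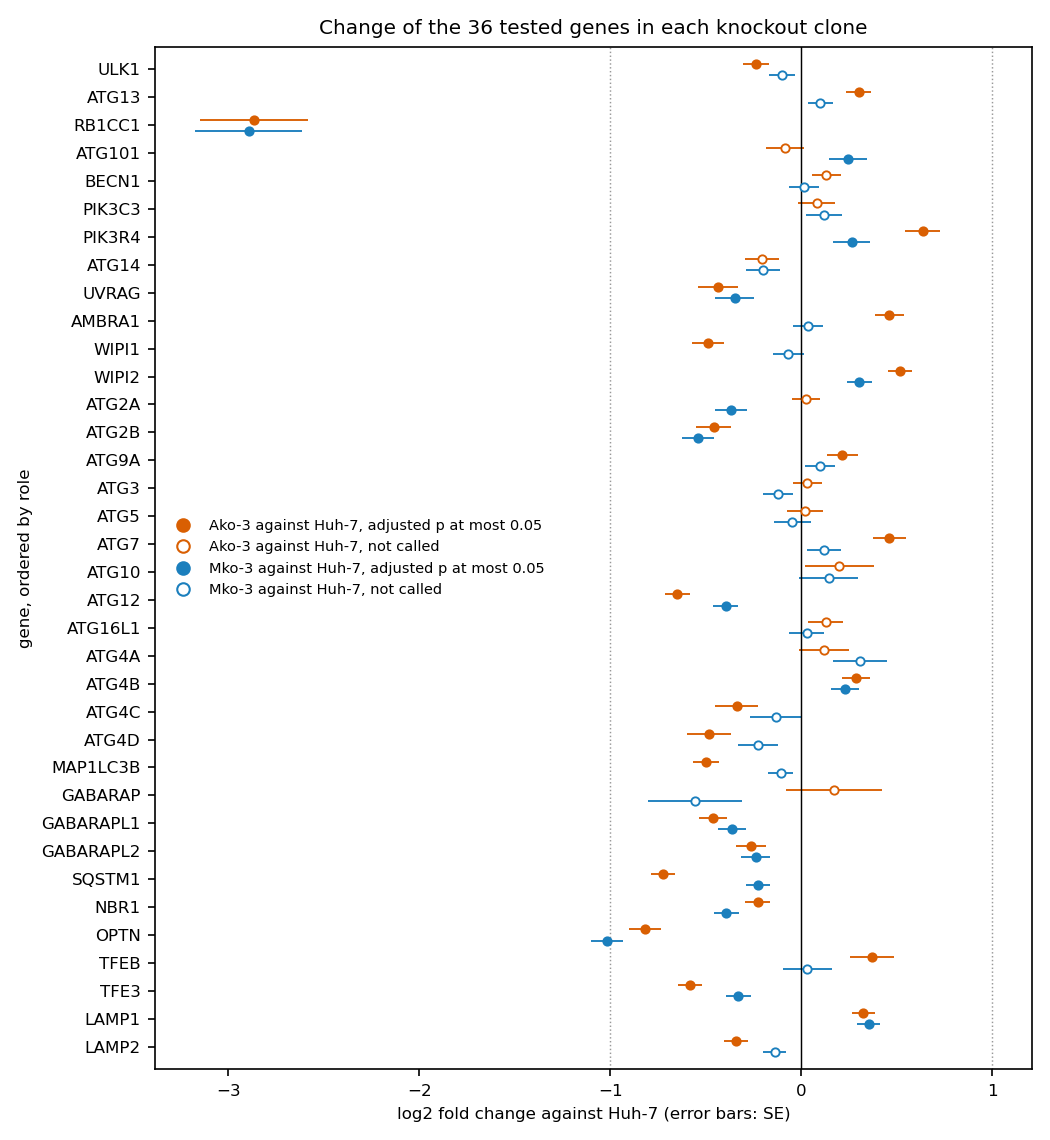
Log2 fold change against Huh-7 of the 36 tested genes in order of role (bars: SE), orange for Ako-3 and blue for Mko-3, filled where the adjusted p was at most 0.05, with dotted lines at 1 and -1. RB1CC1 lies near -2.9 in both clones, OPTN near -1 in Mko-3, and all others between -1 and 1.

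Both comparisons with Huh-7 use the same 3 Huh-7 libraries, so their values are set side by side and are not independent of each other. With the clones set against each other, without the control, 9 genes were higher in Mko-3 than in Ako-3 and 10 lower (52.8%, beside 41.6% of 15528 genes, 21.1% higher and 20.6% lower). None of these 19 passed the stricter rule by edgeR or by DESeq2, a rule passed by 5.73% of all genes (2.26% higher and 3.47% lower), and 1 further gene had an unadjusted p under 0.05. The libraries of a clone and Huh-7 did not overlap for 26 of 36 genes in Ako-3 and 19 of 36 in Mko-3, beside 57.6% and 60.7% of all genes.

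The cargo receptors had the lowest median of the 9 role groups in both clones, -0.72 in Ako-3 and -0.39 in Mko-3 on the log2 scale. OPTN, SQSTM1 and NBR1, the 3 receptors on the list, were lower in both clones in every alternative fit. OPTN (optineurin), a receptor for ubiquitin-marked mitochondria and bacteria at chr10:13099449-13138308 (hg38), read 52.5, 41.5 and 53.3 FPKM in Huh-7. It read 28.8, 29.8 and 26.7 FPKM in Ako-3 and 24.6, 25.0 and 25.0 in Mko-3. Every library of both clones was below every control library. On the log2 scale the difference from Huh-7 was -0.82 (SE 0.09, adjusted p = 8.1e-07) in Ako-3 and -1.02 (SE 0.08, adjusted p = 1.3e-08) in Mko-3. Mko-3 was also below Ako-3 (-0.20, SE 0.05, adjusted p = 0.00039), a call that was lost when all 9 libraries were fitted together (adjusted p = 0.054).

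SQSTM1 encodes p62, the ubiquitin-binding receptor that is itself degraded by autophagy, and lies at chr5:179806398-179838078. Its levels were 32.9, 31.9 and 29.6 FPKM in Huh-7. They were 19.0, 19.6 and 19.6 FPKM in Ako-3 and 27.3, 27.4 and 28.1 in Mko-3, so the 3 groups formed separate ranges with Mko-3 between. The fall was -0.72 (SE 0.06, adjusted p = 7.9e-09) in Ako-3 and -0.23 (SE 0.06, adjusted p = 0.0033) in Mko-3, on the log2 scale. The difference between the clones, 0.50 (SE 0.04, adjusted p = 4.1e-16), had the smallest adjusted p of all 36 genes in that comparison. Of the exonic bases of SQSTM1, 22.4% are shared with other annotated genes, mainly MRNIP, and the strand setting of the counting is not given in the sources used here. NBR1, a receptor related in structure to p62, read 24.0, 21.7 and 24.5 FPKM in Huh-7, 20.3, 20.1 and 20.8 in Ako-3 and 18.0, 18.4 and 18.3 in Mko-3. It fell by 0.23 (SE 0.06, adjusted p = 0.0061) in Ako-3 and by 0.39 (SE 0.06, adjusted p = 2.3e-05) in Mko-3 on the log2 scale, and was lower in Mko-3 than in Ako-3 (adjusted p = 0.0021).

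In the ATG8 family, whose members are coupled to the autophagosome membrane, no gene rose in either clone, 3 of 4 tested fell in Ako-3 and 2 of 4 in Mko-3. These falls are 75% and 50% of only 4 genes, beside 24.4% and 27.1% of all genes tested. MAP1LC3B, whose protein LC3B is the usual marker of autophagosomes, read 22.7, 21.4 and 23.0 FPKM in Huh-7. It read 16.4, 17.1 and 15.0 FPKM in Ako-3 and 22.7, 20.9 and 20.2 in Mko-3. The Ako-3 libraries lay below all others, while Mko-3 and Huh-7 overlapped. MAP1LC3B changed by -0.50 (SE 0.07, adjusted p = 4.3e-06) on the log2 scale in Ako-3, and its value in Mko-3 was -0.11 (SE 0.07, adjusted p = 0.18). The 95% interval of the latter was -0.24 to 0.02, and Mko-3 was above Ako-3 by 0.39 (SE 0.05, adjusted p = 2.4e-09). GABARAPL1 was lower in both clones, with 22.3, 19.5 and 22.4 FPKM in Huh-7, 16.0, 15.7 and 15.9 in Ako-3 and 17.6, 16.2 and 17.4 in Mko-3. The falls were -0.46 (SE 0.07, adjusted p = 3e-05) and -0.36 (SE 0.07, adjusted p = 0.00031) in log2 units. Both genes have a near-identical copy elsewhere in the genome (MAP1LC3B2 and GABARAPL3), so their counts are uncertain to the extent that reads were split.

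GABARAPL2 fell by 0.26 in Ako-3 and 0.24 in Mko-3 on the log2 scale (adjusted p = 0.0072 and 0.012). The call in Mko-3 was lost without Mko-3 replicate 2 or 3 (adjusted p = 0.07 and 0.05) or Huh-7 replicate 1 (adjusted p = 0.058). GABARAP had means of only 1.08 to 1.78 FPKM and 48.2% of its exonic bases are shared with other annotated genes. Its only call was between the clones, lower in Mko-3 than in Ako-3 (-0.73, SE 0.22, adjusted p = 0.0056), although the libraries overlapped. This call was lost without Ako-3 replicate 2 (-0.43, adjusted p = 0.19). Against Huh-7, GABARAP stood at -0.55 in Mko-3 (SE 0.25, adjusted p = 0.062) and was not called.

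**Figure D3:**
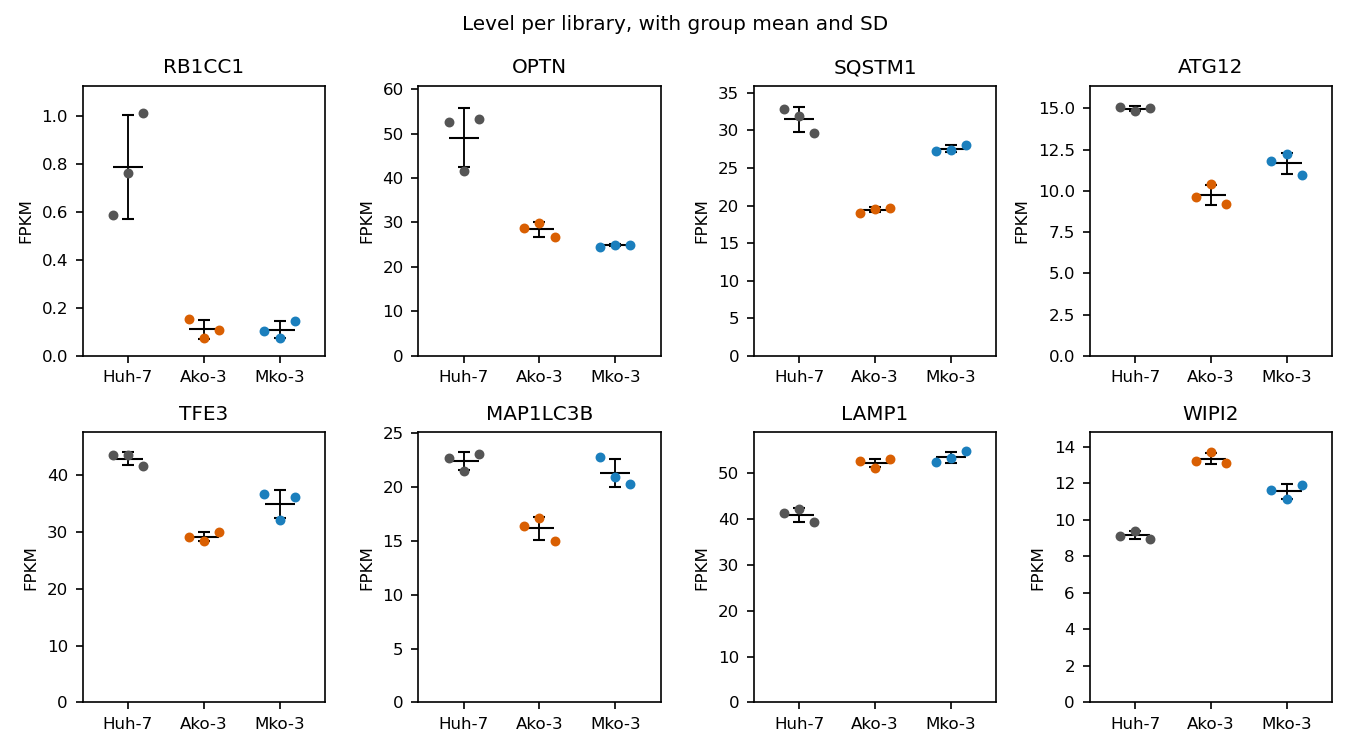
Level per library (points, FPKM from 0) with group mean and SD (black) of 8 genes in Huh-7, Ako-3 and Mko-3 cells. OPTN, SQSTM1, ATG12, TFE3 and RB1CC1 are lower in both clones, MAP1LC3B is lower in Ako-3, and LAMP1 and WIPI2 are higher in both.

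RB1CC1 had the greatest fold difference of the 36 genes in both clones. It encodes FIP200, the scaffold of the ULK1 kinase complex. Its raw counts were 84, 88 and 141 in Huh-7, 19, 11 and 14 in Ako-3 and 14, 10 and 17 in Mko-3. These are levels of 0.586, 0.760 and 1.01 FPKM against 0.152, 0.0745 and 0.106 in Ako-3 and 0.105, 0.0756 and 0.146 in Mko-3. Every clone library was below every control library, and the 2 clones overlapped. In log2 units RB1CC1 stood at -2.86 (SE 0.28, adjusted p = 7.1e-08) in Ako-3 and at -2.89 (SE 0.28, adjusted p = 2.3e-08) in Mko-3, which is 7.28-fold and 7.42-fold lower. The difference between the clones was -0.03 with a 95% interval of -0.83 to 0.77. The 18 other tested genes within 5 Mb had a median log2 fold change of -0.04 in Ako-3.

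The other members of the complex moved little. ULK1, the kinase itself, had means of 15.2 FPKM in Huh-7, 13.1 in Ako-3 and 14.5 in Mko-3 and fell in Ako-3 by 0.24 on the log2 scale (adjusted p = 0.0067). Without Ako-3 replicate 2 that adjusted p was 0.050. ATG13, the adaptor that links ULK1 to FIP200, rose in Ako-3 from 11.2 to 14.1 FPKM (log2 fold change 0.30, adjusted p = 0.0009). ATG101, the partner of ATG13, was called higher in Mko-3 with 7.06 FPKM in Huh-7 and 8.58 in Mko-3 (log2 fold change 0.25, adjusted p = 0.04). Its call was lost without Mko-3 replicate 1 or 3 (adjusted p = 0.068 and 0.22) and without Huh-7 replicate 3 (adjusted p = 0.15). It was lost too with upper-quartile factors or library totals (adjusted p = 0.13 with each), by DESeq2 (adjusted p = 0.073) and by limma on FPKM (adjusted p = 0.058).

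Among the class III phosphatidylinositol 3-kinase complexes, BECN1, the kinase subunit PIK3C3 and ATG14, the subunit of the autophagy form, passed no test. Their levels were 7.08, 1.43 and 6.15 FPKM in Huh-7. ATG14 stood at -0.21 in Ako-3 (adjusted p = 0.063) and -0.20 in Mko-3 (adjusted p = 0.064) on the log2 scale. It shares 20.8% of its exonic bases with FBXO34. BECN1 and PIK3C3 lay between 0.01 and 0.13 in both clones, with an adjusted p of at least 0.16. PIK3R4 (VPS15), the regulatory subunit, rose. It read 4.53, 5.96 and 5.03 FPKM in Huh-7, 8.49, 7.91 and 8.11 in Ako-3 and 6.75, 5.90 and 6.37 in Mko-3. The Ako-3 libraries lay above all others, and Mko-3 overlapped Huh-7. It rose by 0.64 (SE 0.09, adjusted p = 9.5e-06) in Ako-3 and 0.26 (SE 0.10, adjusted p = 0.028) in Mko-3. The Mko-3 call was lost without any one of Mko-3 replicate 1 or 3 and Huh-7 replicate 1 or 3 (adjusted p = 0.12, 0.068, 0.13 and 0.081). With upper-quartile factors, library totals or limma on FPKM it was lost as well (adjusted p = 0.084, 0.092 and 0.07). The 68 other tested genes within 5 Mb of PIK3R4 had a median of 0.13 in Ako-3.

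AMBRA1, an activator of Beclin 1, rose in Ako-3 alone, with 6.24, 6.23 and 6.76 FPKM in Huh-7, 9.57, 8.68 and 8.77 in Ako-3 and 6.29, 6.63 and 7.30 in Mko-3. Its rise in Ako-3 was 0.46 in log2 units (SE 0.08, adjusted p = 3.8e-05), and Mko-3 lay below Ako-3 by -0.42 (SE 0.06, adjusted p = 2.3e-08). In Mko-3 against Huh-7 it was 0.04 (adjusted p = 0.72). AMBRA1, at chr11:46396414-46594125, lies close to ATG13, at chr11:46617527-46674818, which also rose in Ako-3 alone. The 48 other tested genes within 5 Mb of AMBRA1 had a median of 0.09 in Ako-3. Whether the region bears on these calls was not tested. UVRAG, the subunit of the endosomal form of the complex, fell in both clones. It read 3.08, 3.53 and 3.73 FPKM in Huh-7, 2.50, 2.67 and 2.61 in Ako-3 and 2.68, 2.91 and 2.73 in Mko-3, which is -0.44 in Ako-3 and -0.35 in Mko-3 in log2 units (adjusted p = 0.0016 and 0.007). So, of the 6 genes of this role group, PIK3R4 and AMBRA1 were called higher and UVRAG lower in Ako-3. That is 50%, the same as the share of all genes called there (49.9%).

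The genes of membrane supply and PI3P binding moved in both directions. WIPI2, the PI3P effector that recruits ATG16L1, read 9.13, 9.38 and 8.93 FPKM in Huh-7, 13.2, 13.7 and 13.1 in Ako-3 and 11.6, 11.1 and 11.9 in Mko-3. The 3 groups did not overlap. It rose by 0.52 (SE 0.06, adjusted p = 1.1e-06) in Ako-3 and by 0.30 (SE 0.07, adjusted p = 0.00049) in Mko-3 on the log2 scale. Its paralog WIPI1 fell in Ako-3, from 11.7, 12.3 and 11.2 FPKM in Huh-7 to 8.94, 8.37 and 8.23, while Mko-3 read 11.8, 10.7 and 11.8. This was a log2 difference of -0.49 (SE 0.08, adjusted p = 4.8e-05), and Mko-3 was 0.42 above Ako-3 (adjusted p = 1.9e-06). WIPI1 shares 28.1% of its exonic bases with other annotated genes, mainly ARSG.

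The lipid transfer proteins ATG2A and ATG2B differed from each other. ATG2B read 2.98, 2.94 and 3.46 FPKM in Huh-7, 2.59, 2.17 and 2.22 in Ako-3 and 2.26, 2.29 and 2.06 in Mko-3, and fell in both clones (-0.46, adjusted p = 0.00033, and -0.54, adjusted p = 1.9e-05). ATG2A fell in Mko-3 alone. Its levels were 9.93, 8.59 and 8.87 FPKM in Huh-7, 9.28, 9.38 and 9.76 in Ako-3 and 6.83, 6.84 and 8.14 in Mko-3, which puts Mko-3 at -0.37 from Huh-7 (SE 0.08, adjusted p = 0.00078) and at -0.39 from Ako-3 (SE 0.06, adjusted p = 1.3e-07) in log2 units. ATG9A, the lipid scramblase of the vesicles that seed the membrane, was called higher in Ako-3 at a log2 fold change of 0.22 (adjusted p = 0.029). That call was lost without Ako-3 replicate 3 (adjusted p = 0.17) or Huh-7 replicate 1 (adjusted p = 0.11). Of the exonic bases of ATG9A, 38.8% are shared with another gene. The 60 other tested genes within 5 Mb of ATG9A had a median of 0.15 in Ako-3.

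Of the conjugation machinery, ATG3, ATG5, ATG10 and ATG16L1 passed no test in any comparison, with means of 7.20, 3.86, 1.16 and 4.02 FPKM in Huh-7. ATG12, the ubiquitin-like protein that is joined to ATG5, fell in both clones. It read 15.1, 14.8 and 15.0 FPKM in Huh-7, 9.64, 10.4 and 9.20 in Ako-3 and 11.8, 12.2 and 11.0 in Mko-3, with no overlap between the groups. On the log2 scale ATG12 changed by -0.65 (SE 0.07, adjusted p = 8.7e-08) in Ako-3 and -0.40 (SE 0.06, adjusted p = 2.1e-05) in Mko-3, and the clones differed by 0.25 (adjusted p = 5.3e-05). The 31 other tested genes within 5 Mb of ATG12 had a median of -0.24 in Ako-3, and the 30 tested in Mko-3 had one of -0.11. ATG7, the E1-like enzyme that activates both conjugation systems, rose in Ako-3 from 2.66 to 3.74 FPKM (log2 fold change 0.46, SE 0.09, adjusted p = 0.00015) and was lower in Mko-3 than in Ako-3 (adjusted p = 0.00018). The 82 other tested genes within 5 Mb of ATG7 had a median of 0.24 in Ako-3 and of -0.20 in Mko-3 against Ako-3.

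The ATG4 proteases process the ATG8 proteins and release them from membrane. ATG4B, with the broadest activity on LC3, rose in both clones. It read 7.66, 7.97 and 7.19 FPKM in Huh-7, 8.99, 9.68 and 9.73 in Ako-3 and 9.30, 8.77 and 9.34 in Mko-3 (log2 fold changes 0.29, adjusted p = 0.0026, and 0.23, adjusted p = 0.011). With library totals or upper-quartile factors the Mko-3 call was lost (adjusted p = 0.063 and 0.061). ATG4D fell in Ako-3, from 9.60, 10.1 and 7.91 FPKM in Huh-7 to 5.94, 6.70 and 7.45, with Mko-3 at 8.24, 7.61 and 8.28. The fall in log2 units was -0.48 (SE 0.12, adjusted p = 0.0017), and the clones differed by 0.26 (adjusted p = 0.033), a call that was lost without Mko-3 replicate 1 or 3 (adjusted p = 0.097 and 0.1) or Ako-3 replicate 1 or 2 (adjusted p = 0.19 and 0.081). ATG4C was called lower in Ako-3 (-0.34, adjusted p = 0.017), but not without Ako-3 replicate 1 or 2 (adjusted p = 0.069 and 0.1) nor by DESeq2 (adjusted p = 0.054). The 37 other tested genes within 5 Mb of ATG4C had a median of -0.24 in Ako-3. ATG4A passed no test, with a log2 fold change of 0.31 in Mko-3 (SE 0.14, adjusted p = 0.067).

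The 2 MiT/TFE transcription factors moved in opposite directions in Ako-3. TFE3, by far the more abundant here, read 43.6, 43.5 and 41.5 FPKM in Huh-7, 29.2, 28.4 and 30.0 in Ako-3 and 36.7, 32.0 and 36.1 in Mko-3. The 3 groups did not overlap. On the log2 scale TFE3 stood at -0.58 from Huh-7 (SE 0.06, adjusted p = 1.6e-07) in Ako-3 and -0.33 (SE 0.06, adjusted p = 0.0002) in Mko-3, and Mko-3 was above Ako-3 by 0.25 (adjusted p = 1.3e-05). TFEB, with means of 2.01 FPKM in Huh-7, 2.65 in Ako-3 and 2.11 in Mko-3, rose in Ako-3 (log2 fold change 0.37, adjusted p = 0.011). Without Ako-3 replicate 3 its adjusted p was 0.052, and with library totals 0.053. These are mRNA levels, whereas both factors are regulated by phosphorylation and movement to the nucleus, which were not measured here.

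The lysosomal membrane glycoproteins LAMP1 and LAMP2, which cover most of the inner face of the lysosomal membrane, also parted. LAMP1 (chr13:113297241-113323672), whose promoter with its 6 E-boxes is printed above, rose in both clones. It read 41.2, 42.2 and 39.3 FPKM in Huh-7, 52.5, 51.2 and 53.0 in Ako-3 and 52.4, 53.2 and 54.7 in Mko-3. The rise was 0.33 (SE 0.06, adjusted p = 0.00011) and 0.35 (SE 0.06, adjusted p = 2.8e-05) on the log2 scale, which is 25.4% and 27.7% higher. The clones differed by 0.03 (95% interval -0.05 to 0.11, adjusted p = 0.61). LAMP2, needed for fusion and for chaperone-mediated autophagy, read 46.9, 45.2 and 49.3 FPKM in Huh-7, 38.8, 37.9 and 37.1 in Ako-3 and 42.6, 45.2 and 43.7 in Mko-3. It fell by 0.34 (SE 0.06, adjusted p = 0.00011) in Ako-3 on the log2 scale, was -0.14 in Mko-3 (adjusted p = 0.057), and differed between the clones by 0.20 (adjusted p = 5.1e-05). ATG3, the other gene with TCACGTGA, had means of 7.20, 7.50 and 6.79 FPKM in the 3 groups.

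The comparison of the clones separated these genes further. The difference between the clones was called for SQSTM1, ATG12, TFE3, WIPI2 and PIK3R4, for which Ako-3 lay further from Huh-7, and for OPTN and NBR1, for which Mko-3 did. It was also called for ATG2A, which was lower in Mko-3 than in Ako-3, and for ATG101, which was higher. For RB1CC1, LAMP1, UVRAG, ATG2B, GABARAPL1, GABARAPL2, ATG4B, ATG9A and ATG4C, each called against Huh-7 in at least 1 clone, no difference between the clones was called. The difference between the clones was lost without at least 1 of the 6 libraries for ULK1, ATG4D and TFEB, as for GABARAP above.

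**Figure D4:**
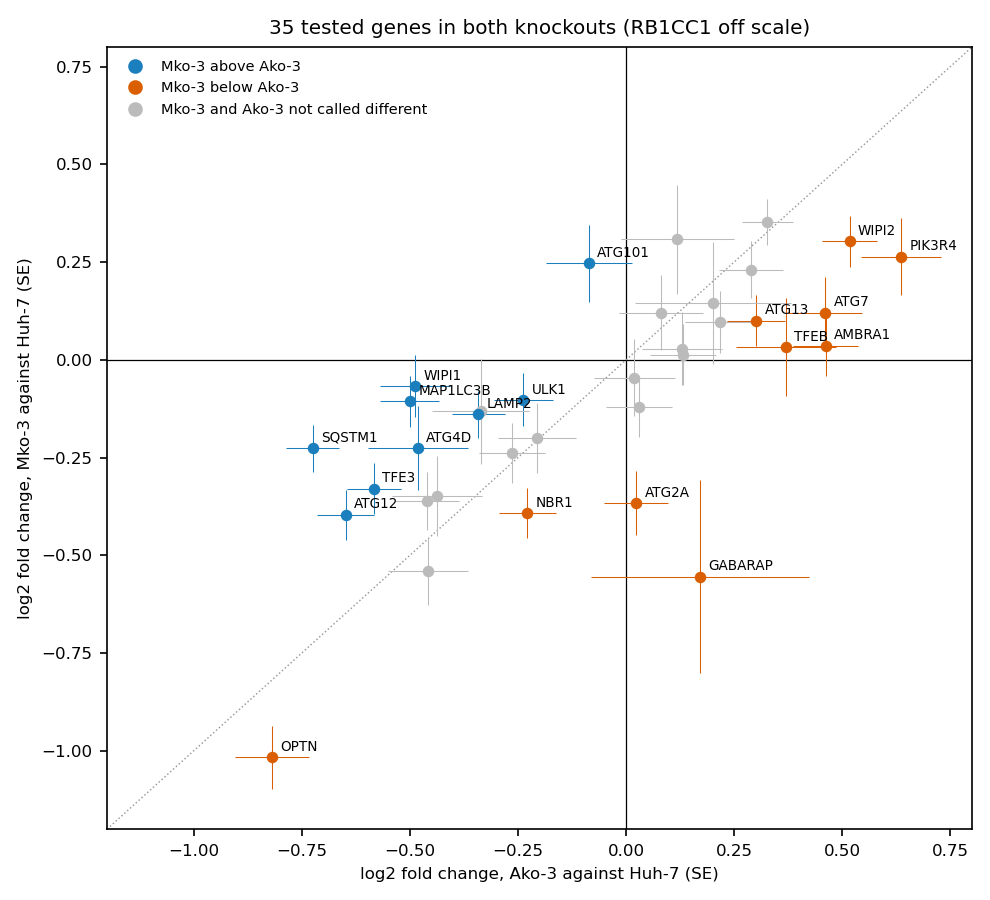
Log2 fold change in Mko-3 against that in Ako-3 for 35 tested genes (bars: SE, dotted line: equal values), in blue where Mko-3 was called above Ako-3, in orange where below and in grey where not called. The axes share the Huh-7 libraries. SQSTM1, ATG12 and TFE3 lie to the left of the line, and OPTN, NBR1, ATG2A and GABARAP below it.

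Beyond the 38 genes, 7 lists of further autophagy and lysosome genes held 182 genes, of which 174 were tested against Huh-7. In Ako-3 cells 40 rose and 52 fell (52.9%), and in Mko-3 cells 47 rose and 51 fell (56.3%), near the 49.9% and 54.0% of all genes. With library totals these counts were 26 and 68 in Ako-3 and 33 and 65 in Mko-3. Of 18 genes of autophagosome-lysosome fusion, 9 rose and 1 fell in Ako-3 and 8 rose and 1 fell in Mko-3. The shares called, 55.6% and 50%, were near those of all genes. By direction, 25.5% of all genes rose in Ako-3 and 26.9% in Mko-3. The risen fusion genes were led by VPS18 and VPS41, subunits of the HOPS tether. On the log2 scale these stood at 0.51 and 0.48 in Ako-3 (adjusted p = 1.3e-05 and 2.2e-05). In Mko-3 they stood at 0.49 and 0.43 (adjusted p = 1.8e-05 and 4.5e-05).

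Of 14 further selective receptors, 1 rose and 6 fell in each clone. That is 50% in each, near the 49.9% of all genes called in Ako-3 and the 54.0% in Mko-3. The median log2 fold change of this list was -0.11 in Ako-3 and -0.14 in Mko-3. CALCOCO1, a receptor for the endoplasmic reticulum, read 7.38, 6.08 and 6.89 FPKM in Huh-7, 4.58, 4.60 and 4.29 in Ako-3 and 3.57, 2.94 and 3.29 in Mko-3, and fell by 0.63 (adjusted p = 2.9e-06) and 1.09 (adjusted p = 2.6e-09) on the log2 scale. CALCOCO2 (NDP52) fell by 0.60 in Ako-3 (adjusted p = 1.4e-06), with means of 9.59 FPKM in Huh-7, 6.46 in Ako-3 and 7.29 in Mko-3. BCL2L13, a mitochondrial receptor, fell by 0.66 in Mko-3 (adjusted p = 4.8e-08), with means of 14.2, 10.2 and 9.24 FPKM in the same order.

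Of 16 tested genes of further autophagosome formation, 7 fell in each clone, while 1 rose in Ako-3 and 2 in Mko-3. The shares called were 50% in Ako-3 and 56.25% in Mko-3, beside 49.9% and 54.0% of all genes. ATG16L2, a paralog of ATG16L1, had means of 1.34 FPKM in Huh-7, 0.625 in Ako-3 (-1.14, adjusted p = 1.4e-06) and 0.774 in Mko-3. SH3GLB1, a membrane-curving partner of UVRAG, fell in Ako-3 from 19.8 to 10.6 FPKM (-0.93, adjusted p = 1.2e-08), and its mean in Mko-3 was 14.5. These 2 genes had the smallest adjusted p of this list in both clones. Of 19 further lysosomal membrane genes, 3 rose and 6 fell in Ako-3 and 9 rose and 5 fell in Mko-3. The shares called were 47.4% and 73.7%, beside the same shares of all genes. SLC36A1, a lysosomal amino acid exporter, read 9.34, 9.68 and 10.3 FPKM in Huh-7, 17.9, 18.8 and 16.9 in Ako-3 and 19.7, 18.3 and 19.8 in Mko-3 (0.84, adjusted p = 4.4e-09, and 0.95, adjusted p = 2.8e-10). TMEM106B fell in both clones (-0.59, adjusted p = 1.2e-06, and -0.58, adjusted p = 8e-07).

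The V-ATPase, which acidifies the lysosome, had 4 genes higher and 5 lower of 19 tested in Ako-3 and 6 and 4 in Mko-3. That is 47.4% and 52.6%, beside 49.9% and 54.0% of all genes. ATP6V0D1 rose from 7.77 FPKM in Huh-7 to 14.3 in Ako-3 and 13.2 in Mko-3 (0.85, adjusted p = 2.4e-09, and 0.73, adjusted p = 1.9e-08), whereas ATP6V1B2 fell (-0.42, adjusted p = 3.9e-05, and -0.38, adjusted p = 7.3e-05). ATP6V0B rose in Mko-3 (0.51, adjusted p = 9.3e-07). Of 43 lysosomal hydrolases and cofactors, 14 rose and 15 fell in Ako-3 and 12 rose and 12 fell in Mko-3. That is 67.4% and 55.8%, beside the same shares of all genes. LIPA, the lysosomal acid lipase that hydrolyses cholesteryl esters and triglycerides, read 30.7, 28.1 and 33.0 FPKM in Huh-7, 20.8, 20.9 and 18.9 in Ako-3 and 17.7, 18.8 and 17.6 in Mko-3. It fell by 0.63 (adjusted p = 4.6e-07) and 0.80 (adjusted p = 5.2e-09) on the log2 scale. ACP2, a lysosomal acid phosphatase, rose by 0.89 in Ako-3 (adjusted p = 2e-09), and CTSC, the dipeptide-releasing cathepsin C, by 0.43 and 0.73 (adjusted p = 9.8e-06 and 3.6e-09).

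Of 45 tested genes of nutrient signalling and other transcription factors, 8 rose and 12 fell in Ako-3 and 9 rose and 16 fell in Mko-3. The shares called were 44.4% and 55.6%, beside 49.9% and 54.0% of all genes. SESN2, a leucine sensor that restrains mTORC1, fell in both clones, from 27.3 FPKM in Huh-7 to 17.7 in Ako-3 and 18.6 in Mko-3 (-0.65, adjusted p = 4.4e-07, and -0.58, adjusted p = 1.2e-06). PRKAB2, a regulatory subunit of AMPK, fell from 31.0 to 20.1 and 17.3 FPKM (-0.66, adjusted p = 5.1e-07, and -0.88, adjusted p = 1.9e-09).

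**Figure D5:**
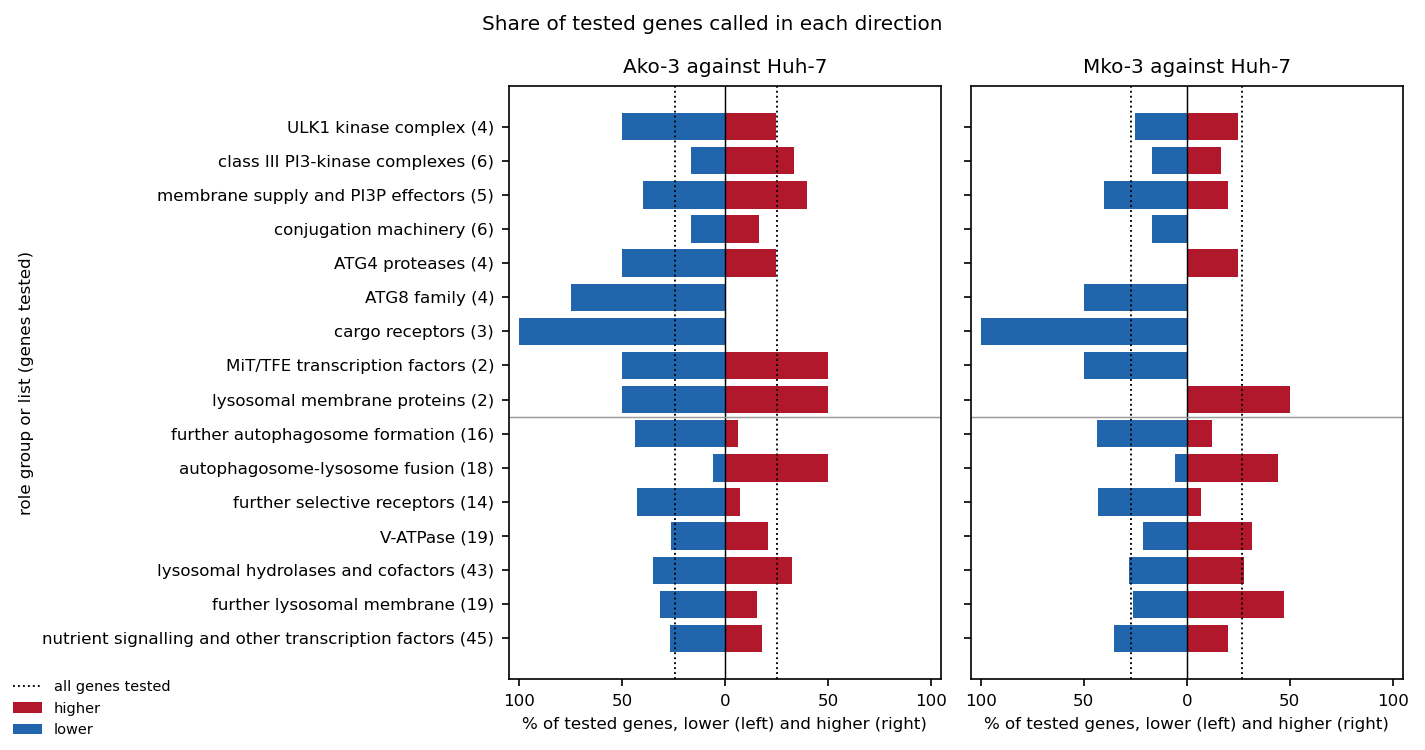
Share of tested genes called lower (blue, left) and higher (red, right) in each clone, for the 9 role groups of the 38 genes (above the line) and the 7 further lists, with the number tested in parentheses, and dotted lines at the shares over all genes tested. All 3 cargo receptors are lower in both clones. In the fusion list more genes are called higher than lower, with 8 of 18 not called in Ako-3 and 9 in Mko-3.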

How the data were processed

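The authors aligned paired reads to hg38 with HISAT2 2.0.5 and counted them on genes with featureCounts 1.5.0-p3, per the labels, and deposited raw counts, FPKM and gene lengths for 58735 genes in 9 libraries. No sample column was left unused. The labels also list hg19 and GRCh37 beside hg38, and positions here follow the deposited table. The deposited FPKM served only as an alternative. FPKM values in the text were computed from TMM-normalized counts over all 9 libraries and the deposited gene length. Each pair of groups was fitted on its 6 libraries with edgeR 4.0.16 in R 4.3.3 by its robust quasi-likelihood F test, after TMM scaling and removal of low genes by filterByExpr (minimum count 10), with Benjamini-Hochberg adjustment over all genes tested. The standard error is the absolute log2 fold change divided by the square root of F. The stricter rule takes the thresholds of the study. Alternatives were other scaling factors, other filters, DESeq2 1.42.0, a fit over all 9 libraries, a replicate block, limma 3.58.1 on log2(deposited FPKM + 1), and each library left out in turn. The edgeR step was tested on simulated data. Counts of replicates differed by more than sampling noise, and most between the Huh-7 libraries. The chi-square per degree of freedom of library pairs was 7.03 to 9.08 in Huh-7, 3.11 to 3.41 in Ako-3 and 2.40 to 2.81 in Mko-3. The 38 genes and the 7 further lists were chosen with earlier results of these data known. Genes given in full are those past the stricter rule and the 6 with the smallest adjusted p in each comparison. The gene with the smallest adjusted p of each role group in each clone is also given in full. Of each further list, the 2 with the smallest adjusted p in each clone are named. Among these, CTSF and RRAGD, named for Mko-3, are given below by levels and by the difference from Ako-3. ATG16L2 and SH3GLB1 are given in Mko-3 by levels alone. Other members are given by values or counts. Exonic overlap came from GENCODE annotation of hg38, and promoters from RefSeq. Gene symbols were matched by name, with 1 of the further genes matched by an older symbol. With 3 libraries against 3, an exact permutation test of 1 gene could not go below p = 0.1.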

Additional observations from a re-analysis of the deposited data

Results flagged for a closer look

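Of the further lists, 3 genes passed the stricter rule between the clones. CTSF and RRAGD, described here, were flagged among them. CTSF, the lysosomal protease cathepsin F, read 10.5, 8.04 and 9.32 FPKM in Huh-7, 10.5, 11.0 and 10.9 in Ako-3 and 2.99, 2.66 and 2.33 in Mko-3 cells, and lay 2.02 lower in Mko-3 than in Ako-3 on the log2 scale (log2 fold change -2.02, SE 0.10, edgeR adjusted p = 5.9e-29). RRAGD, a Rag GTPase that relays amino acid supply to mTORC1, read 20.5, 17.0 and 19.8 FPKM in Huh-7, 19.8, 20.5 and 19.9 in Ako-3 and 10.4, 9.83 and 9.45 in Mko-3 cells (log2 fold change -1.02, SE 0.06, edgeR adjusted p = 1.3e-26). In both, all 3 Mko-3 libraries lay below all 6 others.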

How the results depend on the processing

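Across 15 alternatives a comparison, the 3 comparisons gave 60 calls on the 38 genes. Of these, 47 held in every alternative that gave them a value, 13 were lost in at least 1, and none changed direction. RB1CC1 lay under the FPKM minimum of 0.5 and has no limma value. The number called stayed between 23 and 26 in Ako-3, between 13 and 20 in Mko-3 and between 16 and 20 between the clones. With library totals 26 genes of the further lists were higher in Ako-3 in place of 40. In Mko-3, upper-quartile factors and library totals gave 2 genes higher and 18 lower in place of 5 and 11, and limma on FPKM gave 3 higher. Upper-quartile factors and library totals each put the median log2 fold change of all genes at -0.08, against -0.01 in the main fit. Which scaling is the right one was not tested. Leaving out a library gave 3 to 6 higher in Mko-3, with 3 without Mko-3 replicate 1, Mko-3 replicate 3 or Huh-7 replicate 3. The stricter rule was passed in Mko-3 by 1 gene with no filter on low counts, by 1 to 2 when a library was left out (1 without Huh-7 replicate 1 or 3), in each case with OPTN short of the threshold. With limma on log2(FPKM + 1) it was passed by 0 in Mko-3, where OPTN stood at -0.97, and by 0 in place of 1 in Ako-3, RB1CC1 not being tested there.

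With the replicate number as a block, 24, 16 and 19 genes were called in place of 25, 16 and 19, and ATG9A in Ako-3 had an adjusted p of 0.051. Deviations of same-numbered libraries correlated between -0.08 and 0.07, so the numbers were not taken to pair the libraries.

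Sign changes occurred only for values that passed no test, given here on the log2 scale. With upper-quartile factors ATG2A in Ako-3 was -0.028, RRAGD in Ako-3 -0.0080 and AMBRA1 in Mko-3 -0.031. With library totals they were -0.071, -0.052 and -0.032, and VPS18 between the clones was 0.0077. ATP6V0B in Ako-3 was 0.014 with no filter. With a library left out, the ranges in Ako-3 were -0.021 to 0.088 for ATG2A, -0.050 to 0.034 for ATP6V0B and -0.036 to 0.095 for RRAGD, and in Mko-3 -0.016 to 0.092 for AMBRA1 and -0.19 to 0.061 for APOB. Between the clones they were -0.29 to 0.26 for RB1CC1, -0.14 to 0.0064 for ATG2B, -0.053 to 0.027 for VPS18 and -0.012 to 0.041 for TMEM106B. RB1CC1 rests on 10 to 19 counts per clone library, so its fold change is less precise than that of the other called genes.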
